A study of Mus musculus with 15 samples.

Results

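The genes described here encode the protein-folding machinery of the cell: cytosolic heat-shock proteins, the cytosolic chaperonin, mitochondrial chaperones, chaperones of the endoplasmic reticulum (ER), and the sensors and degradation factors of the unfolded protein response (UPR). They were taken by gene symbol from a list of 49 genes, and 47 of them were among the 11551 genes measured. By compartment, 15 of 16 listed cytosolic heat-shock genes, 7 of 8 chaperonin genes, all 4 mitochondrial genes, all 15 ER chaperones and all 6 UPR genes were measured. Bag3 and Cct6a were not analysed here. Every measured gene had passed the authors' own threshold in at least 1 of their 4 comparisons, so presence in the set is not a result, and counts apply within it.

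RNA was sequenced from mouse Abelson pre-B cells, B-lineage progenitors transformed by the v-Abl kinase, in 15 libraries. All 5 groups of 3 libraries had been treated with imatinib, an inhibitor of that kinase, for 48 h. Art_shBCLAF1 and Art were Artemis-deficient cells (Art -/-), with the shRNA labelled shBCLAF1 in Art_shBCLAF1 and none in Art. Rag_SPIC_tet_DOX_shBCLAF1, Rag_SPIC_tet_DOX and Rag_SPIC_tet_NoDOX were cells deficient for the RAG recombinase (Rag -/-) that carry a tetracycline-controlled SPIC construct. Doxycycline (DOX) was given to the first and second of these and not to the third, and shBCLAF1 only to the first. Artemis opens the hairpin-sealed ends that RAG leaves, so that RAG-made breaks stay unjoined in cells without it, whereas cells without RAG make no such breaks. SPIC is a transcription factor related to PU.1, and BCLAF1 is a nuclear protein that the series title names with it. No label names a control hairpin, and neither clonality of the lines nor separate culture of replicates is given in the sources used here. The p-values therefore measure only the spread between these samples, which may be technical.

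Heat-shock proteins hold unfolded chains in solution and pass them on for folding, and many of their genes are switched on by the transcription factor HSF1, which binds heat shock elements. TRiC is a ring-shaped chaperonin that folds actin, tubulin and other cytosolic proteins, and HSP60 with its lid HSP10 is its counterpart in the mitochondrial matrix. In the ER, BiP and GRP94 fold secreted and membrane proteins such as immunoglobulin chains, and their genes carry ER stress elements that are read in the UPR. The sensors of the UPR are IRE1, PERK and ATF6.

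Promoter sequences from RefSeq (GRCm38.p6, not the mm9 build named for these libraries) were found for 38 of the 47 genes, as windows of 250 bases before and 50 bases after each start. The 4 stretches below are shown because they let the inducible HSP70 pair, which was lower in Art_shBCLAF1, be set beside HSP10, which was higher, and because BiP carries the ER stress element found in many ER chaperone genes. Each gives the 150 bases before the start, 5′ to 3′ on the strand of the gene, and the capitals mark a heat shock element in the first 3 and an ER stress element in Hspa5.
Hspa1b, chr17:34959239-34959388, minus strand: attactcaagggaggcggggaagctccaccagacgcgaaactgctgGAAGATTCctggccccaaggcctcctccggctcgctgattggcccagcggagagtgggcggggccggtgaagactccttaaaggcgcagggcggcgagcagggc
Hspa1a, chr17:34972157-34972306, minus strand: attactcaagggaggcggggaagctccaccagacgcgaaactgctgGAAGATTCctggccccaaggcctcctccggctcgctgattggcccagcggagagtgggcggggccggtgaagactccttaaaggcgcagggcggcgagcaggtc
Hspe1, chr1:55087998-55088147, plus strand: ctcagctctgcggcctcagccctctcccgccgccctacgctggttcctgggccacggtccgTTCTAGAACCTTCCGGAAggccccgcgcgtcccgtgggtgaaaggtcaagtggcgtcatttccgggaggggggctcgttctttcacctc
Hspa5, chr2:34771940-34772089, plus strand: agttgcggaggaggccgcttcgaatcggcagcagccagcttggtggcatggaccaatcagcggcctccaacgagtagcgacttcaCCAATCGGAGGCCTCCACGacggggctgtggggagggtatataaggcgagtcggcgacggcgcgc

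The stretches of Hspa1b and Hspa1a, neighbouring genes for near-identical inducible HSP70 proteins, were the same at 149 of 150 bases, and the element lay at bases 104 to 97 before the start in both. In Hspe1, 3 overlapping matches ran from base 89 to base 72 before the start. Hspe1 (HSP10) and Hspd1 (HSP60) are read in opposite directions, 216 bases apart at the nearer of the 2 starts listed for Hspd1, and 285 bases of their 300-base windows are shared. The ER stress element of Hspa5 ran from base 65 to base 47.

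A heat shock element was searched on both strands as GAANNTTC or TTCNNGAA, and an ER stress element as CCAAT and CCACG with 9 bases between them. The heat shock element was in 6 of 11 cytosolic heat-shock genes with a window, 2 of 6 chaperonin genes, 2 of 3 mitochondrial genes and none of 13 ER chaperones or 5 UPR genes, against 13.9% of 9102 genes with a window. The ER stress element was in 7 of 13 ER chaperones (Hspa5, Hsp90b1, Calr, Canx, Pdia6, Dnajc3 and Creld2) and in Syvn1, and in 16 of all 9102 genes. Dnajb11 and Herpud1 instead held its second form, ATTGG and CCACG with 1 base between, which 7 of 9102 genes held. An XBP1 site (TGACGTG) was in Hspa5 alone of the members, against 3.37% of all. A MYC E-box (CACGTG) was in 4 of 38 genes, against 11.7% of all. Such matches describe the letters in these windows and show no binding.

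The effective library sizes were 17.2 to 27.1 M reads in 14 libraries and 5.81 M reads in Art replicate 3. Art replicate 3 differed from the other Art libraries by a root mean square of 0.94 and 0.95 log2 units over all genes, against 0.27 between Art replicates 1 and 2. The Rag_SPIC_tet_DOX libraries were graded: replicates 1 and 2 differed by 0.83, 2 and 3 by 0.58, and 1 and 3 by 0.41. Pairs in the other 3 groups differed by 0.24 to 0.36. Art replicate 3 and Rag_SPIC_tet_DOX replicate 2, the ends of these spreads, were each left out in turn, and counts that this moved by over 1.5 times are given both ways. Bclaf1, the gene the hairpin label names, stood at 8.29, 8.35 and 8.32 log2 CPM (log2 of reads scaled to a common library size) in Art_shBCLAF1, against 7.81, 7.75 and 6.41 in Art. It was 7.99, 8.05 and 8.10 in Rag_SPIC_tet_DOX_shBCLAF1, against 7.76, 7.69 and 7.73 in Rag_SPIC_tet_DOX. The mRNA was thus not lower in any library labelled shBCLAF1, and the comparisons below are between labels. Spic was 7.50, 7.43 and 7.44 in Rag_SPIC_tet_DOX_shBCLAF1, against 3.72, 4.59 and 4.31 in Rag_SPIC_tet_DOX and 0.87, 0.18 and 1.41 in Rag_SPIC_tet_NoDOX. In the Art line, for which the labels name no SPIC construct, it was 4.47, 4.34 and 4.80 in Art_shBCLAF1, against 0.85, 0.32 and 0.16 in Art (4.10, SE 0.24, adjusted p = 0.000135). Spic was thus higher under the label in both lines. The Myc gene, whose product drives cell growth, stood at 8.89, 8.68 and 8.79 in Art_shBCLAF1, against 3.87, 4.08 and 4.26 in Art (4.72, SE 0.14, adjusted p = 3.52e-05). It was at 9.13, 9.20 and 9.29 in Rag_SPIC_tet_DOX_shBCLAF1, against 8.06, 3.76 and 6.83 in Rag_SPIC_tet_DOX (3.0, SE 1.0, adjusted p = 0.0419). Both genes were higher under the label in both lines, as were many of the chaperone genes described below. Their part in those results was not tested.

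All 12 pre-B markers were measured, and their summed level was 6400 to 7167 CPM in Art_shBCLAF1, against 13090 to 14000 in Art, and 8169 to 8511 in Rag_SPIC_tet_DOX_shBCLAF1, against 9089 to 13310 in Rag_SPIC_tet_DOX. By limma at an adjusted p below 0.05, 8 of the 12 were lower under the label in Art cells and 0 higher. In Rag_SPIC_tet_DOX cells 4 were lower and 3 higher, among them Vpreb2 (1.13). The 7 of 14 myeloid markers measured summed to 29.3 to 45.1 CPM in Art_shBCLAF1, against 673 to 907 in Art, and to 37.6 to 40.6 in Rag_SPIC_tet_DOX_shBCLAF1, against 189 to 265 in Rag_SPIC_tet_DOX. In Art cells 2 of these 7 markers were lower (Itgam, -5.01, and Lyz2, -1.51), Fcer1g was higher (0.91) and 4 did not pass, whereas in Rag_SPIC_tet_DOX cells all 7 were lower. The 7 of 8 plasma-cell markers summed to 368 to 427 CPM in Art_shBCLAF1 and 576 to 774 in Art, and to 525 to 550 in Rag_SPIC_tet_DOX_shBCLAF1 and 436 to 653 in Rag_SPIC_tet_DOX. Of these 7, 4 were lower and 2 higher in Art cells, Jchain among the latter (1.48), and 2 lower and 1 higher in Rag_SPIC_tet_DOX cells. T and NK markers (4 of 11 measured) summed to 22.4 to 23.9 CPM in Art_shBCLAF1, against 123.3 to 133.5 in Art, and to 46.0 to 47.8 in Rag_SPIC_tet_DOX_shBCLAF1, against 55.5 to 60.5 in Rag_SPIC_tet_DOX. Of the 4, 3 were lower in Art cells and 2 in Rag_SPIC_tet_DOX cells, and 0 were higher in either. Erythroid and megakaryocyte markers (3 of 10) summed to 222 to 245 CPM in Art_shBCLAF1, against 69.8 to 179 in Art, and to 279 to 305 in Rag_SPIC_tet_DOX_shBCLAF1, against 79.5 to 180 in Rag_SPIC_tet_DOX. The sums rose, but in Art cells the only call among the 3 was Itga2b, which was lower (-1.29). In Rag_SPIC_tet_DOX cells it was Tfrc, which was higher (1.41). Of all genes, 25.0% were called higher and 24.1% lower in Art cells, and 28.5% and 25.1% in Rag_SPIC_tet_DOX cells. In bulk RNA, fewer cells of a type and less RNA per cell cannot be told apart, and the part of these markers in the chaperone results was not tested.

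Across the 5 groups most of the folding genes had their highest mean under the shBCLAF1 label. Of the 47 genes, 20 had their highest group mean in Art_shBCLAF1 and 22 in Rag_SPIC_tet_DOX_shBCLAF1, while 21 were lowest in Art and 17 in Rag_SPIC_tet_NoDOX. The gap between a gene's highest and lowest group mean had a median of 2.68 log2 units in the mitochondrial genes, 1.44 in the chaperonin, 1.43 in the cytosolic heat-shock genes, 1.04 in the ER chaperones and 0.53 in the UPR genes. Replicates were farthest apart in Art for 25 genes and in Rag_SPIC_tet_DOX for the other 22, the groups whose libraries also stood apart over all genes. Group orders and spreads were counted for the members alone and are not shown to be particular to them.

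**Figure D1:**
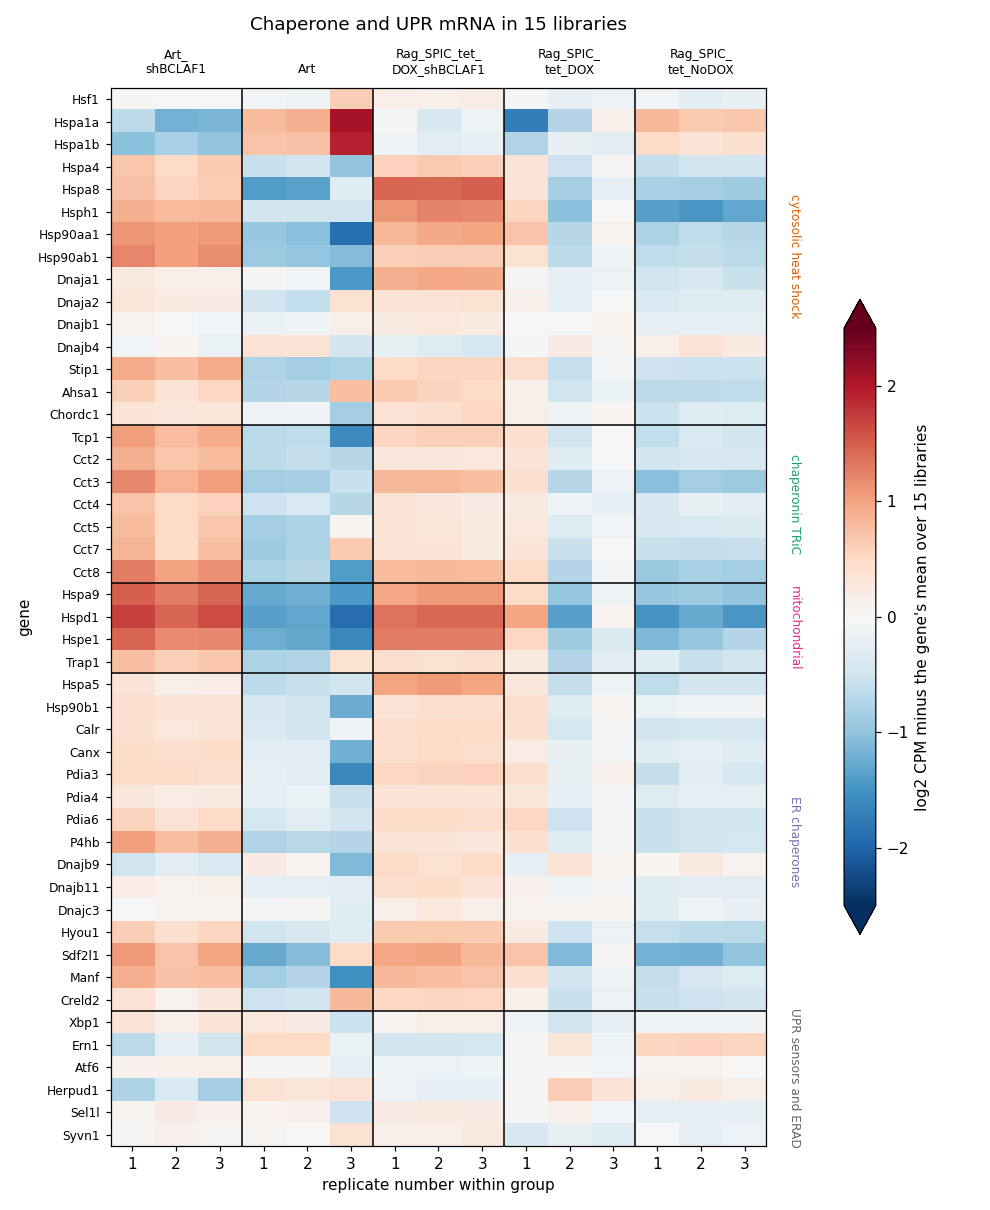
Each row is 1 of the 47 genes and each column 1 library, coloured by log2 CPM minus the gene's mean over the 15 libraries, with horizontal lines between the 5 compartments. The mitochondrial genes and most chaperonin and ER genes are red in both groups labelled shBCLAF1, Hspa1a and Hspa1b are blue in Art_shBCLAF1, and Art replicate 3 and Rag_SPIC_tet_DOX replicate 2 differ from their groups.

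Set against the mean of Rag_SPIC_tet_NoDOX, the 4 mitochondrial genes averaged 2.28, 2.06 and 2.17 log2 units higher in the Art_shBCLAF1 libraries and between -0.23 and -0.20 in the Art libraries. The same average was 1.94, 1.97 and 1.98 in Rag_SPIC_tet_DOX_shBCLAF1, against 1.48, -0.06 and 0.75 in Rag_SPIC_tet_DOX. The Rag_SPIC_tet_DOX libraries thus lay spread between the level without doxycycline and that under the label. ER chaperones averaged 0.85, 0.73 and 0.79 in Art_shBCLAF1, against -0.02, 0.01 and -0.16 in Art, and 0.93, 0.96 and 0.93 in Rag_SPIC_tet_DOX_shBCLAF1, against 0.71, 0.07 and 0.38 in Rag_SPIC_tet_DOX. The mean of the 6 UPR genes lay between -0.20 and 0.16 in all 15 libraries, and its members went both ways, as described below.

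**Figure D2:**
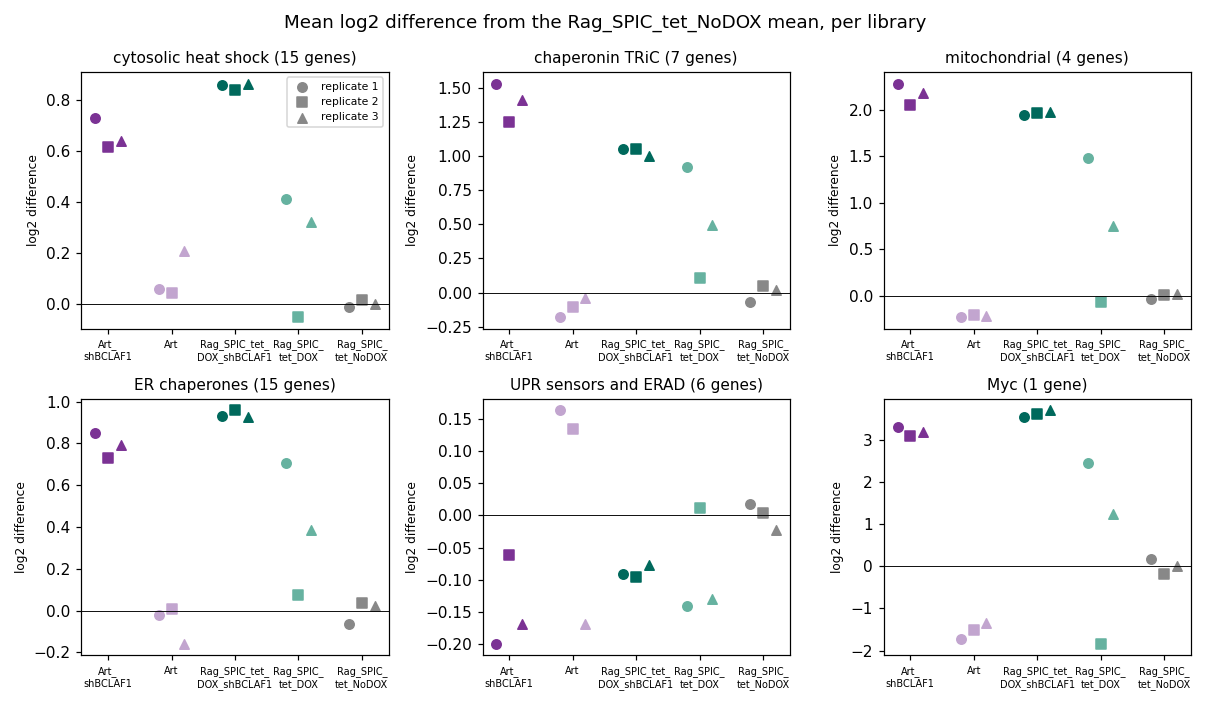
Each panel plots, for the genes of 1 compartment, the mean log2 difference of each library from the Rag_SPIC_tet_NoDOX mean, with the last panel showing Myc alone; symbols give the replicate number, and the vertical scales differ. In the mitochondrial panel the Art_shBCLAF1 libraries lie at 2.06 to 2.28 and the Art libraries near -0.2, and the 3 Rag_SPIC_tet_DOX libraries lie at 1.48, -0.06 and 0.75.

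In Art cells the shBCLAF1 label went with higher mRNA of mitochondrial, chaperonin and ER folding genes and lower mRNA of the inducible HSP70 genes. Of the 47 genes, 29 were higher and 4 lower at an adjusted p below 0.05, against 25.0% and 24.1% of all 11551 genes, and the members' median log2 fold change was 0.92, against 0.05 over all genes. By compartment, 4 of 4 mitochondrial, 6 of 7 chaperonin, 12 of 15 ER and 7 of 15 cytosolic genes were higher, with medians of 2.68, 1.44, 0.88 and 0.67. None of the 6 UPR genes was higher and 2 were lower. Without Art replicate 3 the counts were 34 higher and 6 lower, against 40.6% and 39.5% of all genes. The authors' deposited table lists 36 of the members as higher and 6 as lower, against 4929 and 4855 of the 11551 genes. With every library centred on its own median, a step that lowers all log2 fold changes here by 0.23, the members' counts were 22 and 4 and the shares of all genes 18.7% and 31.2%, and no called member changed sign.

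Hspd1 (ENSMUSG00000025980), the mitochondrial chaperonin HSP60, had the largest rise, at 8.35, 8.10 and 8.28 log2 CPM in Art_shBCLAF1, against 5.30, 5.35 and 4.74 in Art. The groups did not overlap, and the log2 fold change was 3.12 (SE 0.19, adjusted p = 0.000146), or 8.67-fold. Its partner Hspe1 (ENSMUSG00000073676) was at 6.45, 6.18 and 6.20 in Art_shBCLAF1, against 3.79, 3.73 and 3.38 in Art (2.65, SE 0.16, adjusted p = 0.000146). This is the pair whose windows share 3 heat shock element matches. The element is also in Hspa1a and Hspa1b, which were lower, and its part in these changes was not tested. Hspa9, the mitochondrial HSP70 that pulls proteins through the import pore, was at 9.48, 9.28 and 9.46 in Art_shBCLAF1, against 6.73, 6.80 and 6.57 in Art (2.71, SE 0.12, adjusted p = 7.85e-05). Trap1, the mitochondrial HSP90, moved less (1.07, SE 0.32, adjusted p = 0.0341), and Art replicate 3, at 7.43, reached close to the Art_shBCLAF1 libraries at 7.65 to 7.80.

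Both cytosolic HSP90 genes rose with their co-chaperone. Hsp90aa1, the inducible form, was at 7.28, 7.19 and 7.25 log2 CPM in Art_shBCLAF1, against 5.23, 5.12 and 4.29 in Art (2.36, SE 0.26, adjusted p = 0.000804). Hsp90ab1, the constitutive form, was at 12.27, 12.07 and 12.22 in Art_shBCLAF1, against 10.15, 10.08 and 9.96 in Art (2.12, SE 0.13, adjusted p = 0.00014). Stip1, which links HSP70 to HSP90, was at 8.60, 8.42 and 8.60 in Art_shBCLAF1, against 6.91, 6.80 and 6.87 in Art (1.68, SE 0.11, adjusted p = 0.000168). The groups did not overlap for any of these 3 genes. Hspa8, the constitutive HSP70, was at 8.87, 8.68 and 8.77 in Art_shBCLAF1, against 6.75, 6.81 and 7.83 in Art (1.64, SE 0.30, adjusted p = 0.00523), with Art replicate 3 again the nearest to the other group. Hsf1, the master transcription factor of the heat-shock response, was at 6.57 to 6.59 in Art_shBCLAF1, against 6.50, 6.45 and 7.19 in Art, and the groups overlapped (-0.14, SE 0.21, adjusted p = 0.624).

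The inducible HSP70 genes went the other way. Hspa1b (ENSMUSG00000090877) was at 2.38, 2.60 and 2.42 log2 CPM in Art_shBCLAF1, against 4.12, 4.14 and 5.32 in Art (-2.06, SE 0.34, adjusted p = 0.0037). Hspa1a (ENSMUSG00000091971) was at -1.0, -1.53 and -1.49 in Art_shBCLAF1, against 0.46, 0.56 and 1.75 in Art (-2.26, SE 0.42, adjusted p = 0.00548). Neither gene's groups overlapped, and without Art replicate 3 the changes were -1.67 and -1.85, both still past the threshold. The genes are so alike that reads may have been divided between them in counting, so their separate values are uncertain, and Hspa1a rests on few reads.

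The chaperonin rose across its subunits. Cct8 was at 8.93, 8.65 and 8.79 log2 CPM in Art_shBCLAF1, against 6.86, 6.93 and 6.25 in Art (2.11, SE 0.21, adjusted p = 0.00055). Tcp1, the alpha subunit, was at 9.20, 8.91 and 9.07 in Art_shBCLAF1, against 7.46, 7.52 and 6.55 in Art (1.88, SE 0.28, adjusted p = 0.0023). Cct3 was at 8.55, 8.23 and 8.41 in Art_shBCLAF1, against 6.48, 6.53 and 6.80 in Art (1.79, SE 0.14, adjusted p = 0.000294). For these subunits every Art_shBCLAF1 library lay above every Art library. Cct7 alone of the 7 did not pass (1.03, SE 0.42, adjusted p = 0.0835): Art replicate 3 stood at 8.87, inside the Art_shBCLAF1 range of 8.68 to 9.06, while the other Art libraries were at 7.33 and 7.42.

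Among ER chaperones, the cysteine-rich secreted factor Manf was at 6.83, 6.66 and 6.68 log2 CPM in Art_shBCLAF1, against 5.08, 5.19 and 4.40 in Art (1.83, SE 0.23, adjusted p = 0.00122). P4hb, a protein disulfide isomerase, was at 9.10, 8.84 and 8.97 in Art_shBCLAF1, against 7.32, 7.39 and 7.34 in Art (1.62, SE 0.12, adjusted p = 0.000199). Sdf2l1, a BiP cofactor, was at 5.80, 5.45 and 5.73 in Art_shBCLAF1, against 3.47, 3.65 and 5.24 in Art (1.54, SE 0.47, adjusted p = 0.034). In each case all 3 Art_shBCLAF1 libraries were the higher ones. Hspa5 (BiP) was at 8.61, 8.43 and 8.48 in Art_shBCLAF1, against 7.64, 7.72 and 7.83 in Art (0.77, SE 0.12, adjusted p = 0.00245), and Hsp90b1 (GRP94) at 9.01, 8.98 and 8.96 in Art_shBCLAF1, against 8.21, 8.11 and 7.37 in Art (1.09, SE 0.23, adjusted p = 0.00938). Dnajb9, a BiP co-chaperone and IRE1 regulator, did not pass: its Art_shBCLAF1 libraries at 4.04 to 4.27 lay within the Art range of 3.43 to 4.73 (-0.11, SE 0.36, adjusted p = 0.822).

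The UPR genes did not follow the chaperones. Herpud1, a membrane component of ER-associated degradation (ERAD), was at 8.44, 8.81 and 8.33 log2 CPM in Art_shBCLAF1, against 9.58, 9.50 and 9.57 in Art (-1.02, SE 0.15, adjusted p = 0.00259). Ern1, which encodes the sensor IRE1, was at 5.06, 5.51 and 5.28 in Art_shBCLAF1, against 6.24, 6.23 and 5.57 in Art (-0.72, SE 0.23, adjusted p = 0.0378). Both genes were lower in every Art_shBCLAF1 library than in any Art library. Xbp1, whose mRNA IRE1 splices, was at 6.51, 6.28 and 6.48 in Art_shBCLAF1, against 6.41, 6.35 and 5.62 in Art, with overlapping groups (0.29, SE 0.23, adjusted p = 0.331). These gene-level values hold no measure of Xbp1 splicing.

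**Figure D3:**
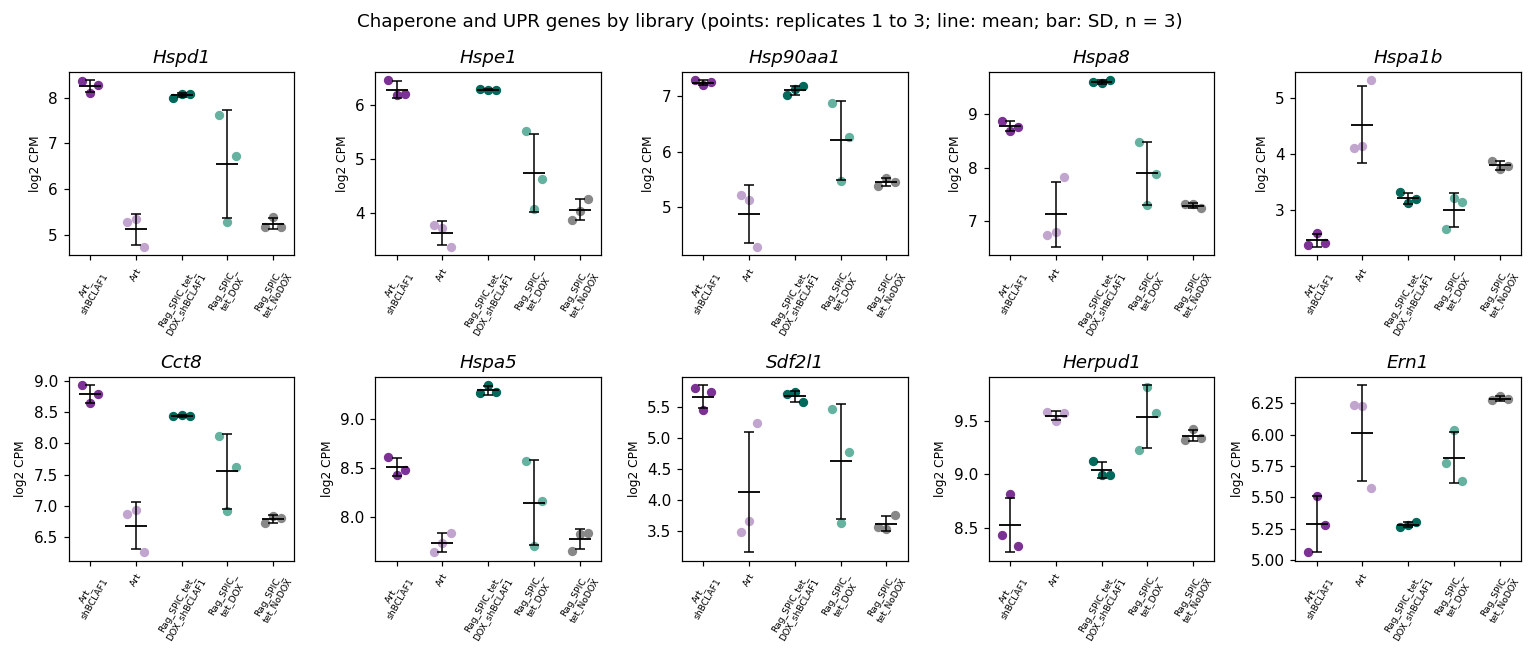
Log2 CPM of 10 genes in each library (points), with the group mean (line) and SD (bar, n = 3), the vertical scale differing between panels. Hspd1, Hspe1, Hsp90aa1 and Cct8 lie higher in both groups labelled shBCLAF1 than in the other libraries, Hspa1b lies lowest in Art_shBCLAF1, and Herpud1 and Ern1 lie lowest in the groups labelled shBCLAF1.

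In Rag_SPIC_tet_DOX cells the same label went with higher mRNA of most cytosolic heat-shock genes, of mitochondrial chaperones and of BiP, while Hspa1a and Hspa1b did not pass. Here 26 genes were higher and 3 lower, against 28.5% and 25.1% of all genes, with a members' median of 0.47, against 0.05 over all genes. The counts of higher genes were 10 of 15 cytosolic, 3 of 7 chaperonin, 3 of 4 mitochondrial, 7 of 15 ER and 3 of 6 UPR genes, and the lower ones were Dnajb4, Ern1 and Herpud1. Without Rag_SPIC_tet_DOX replicate 2 the counts were 30 and 3, against 30.6% and 25.6% of all genes, and the members' median was 0.35. Leaving out Rag_SPIC_tet_DOX replicate 3 brought the higher count to 13, and leaving out any 1 Rag_SPIC_tet_DOX_shBCLAF1 library brought it to 11 or 12, with 1 or 2 lower, as the share of all genes called higher came to between 16.9% and 18.8%. Leaving out Rag_SPIC_tet_DOX replicate 1 gave 39 higher, against 36.1%. This comparison shares the Rag_SPIC_tet_DOX libraries with the one on doxycycline, and Art_shBCLAF1 against Art shares the Art libraries with Art against Rag_SPIC_tet_NoDOX. Spic mRNA was 3.25 log2 units higher in Rag_SPIC_tet_DOX_shBCLAF1 than in Rag_SPIC_tet_DOX (SE 0.21, adjusted p = 0.00022), and a contribution of Spic cannot be told apart from one of the hairpin.

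Hspa8 had the largest rise, at 9.59, 9.57 and 9.63 log2 CPM in Rag_SPIC_tet_DOX_shBCLAF1, against 8.48, 7.31 and 7.89 in Rag_SPIC_tet_DOX (1.70, SE 0.27, adjusted p = 0.00322), or 3.26-fold. Hsph1, the HSP110 nucleotide exchange factor of HSP70, was at 6.99, 7.12 and 7.08 in Rag_SPIC_tet_DOX_shBCLAF1, against 6.43, 4.86 and 5.89 in Rag_SPIC_tet_DOX (1.34, SE 0.36, adjusted p = 0.0215). Dnaja1, a J-domain co-chaperone that feeds substrates to HSP70, was at 5.90, 5.97 and 5.96 in Rag_SPIC_tet_DOX_shBCLAF1, against 5.04, 4.77 and 4.86 in Rag_SPIC_tet_DOX (1.06, SE 0.08, adjusted p = 0.000389). None of the 3 genes overlapped between the groups, and Dnaja1 had the narrowest spread of them among the Rag_SPIC_tet_DOX libraries. Hsf1 was higher by a small step, at 6.74, 6.70 and 6.75 in Rag_SPIC_tet_DOX_shBCLAF1, against 6.53, 6.36 and 6.42 in Rag_SPIC_tet_DOX (0.30, SE 0.06, adjusted p = 0.00934). Dnajb4, another J-domain protein, was lower, at 3.63, 3.48 and 3.39 in Rag_SPIC_tet_DOX_shBCLAF1, against 3.79, 4.03 and 3.85 in Rag_SPIC_tet_DOX (-0.39, SE 0.11, adjusted p = 0.0245).

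Hsp90aa1 and the inducible HSP70 genes did not pass. Hsp90aa1 was at 7.01, 7.12 and 7.17 log2 CPM in Rag_SPIC_tet_DOX_shBCLAF1, against 6.88, 5.47 and 6.26 in Rag_SPIC_tet_DOX (0.90, SE 0.32, adjusted p = 0.0545). Hspa1b was at 3.32, 3.13 and 3.20 in Rag_SPIC_tet_DOX_shBCLAF1, against 2.66, 3.22 and 3.14 in Rag_SPIC_tet_DOX (0.21, SE 0.17, adjusted p = 0.327), and Hspa1a at -0.37, -0.74 and -0.47 in Rag_SPIC_tet_DOX_shBCLAF1, against -2.08, -1.08 and -0.22 in Rag_SPIC_tet_DOX (0.59, SE 0.48, adjusted p = 0.325). The 2 HSP70 genes overlapped between the groups, and Hsp90aa1 did not. Without Rag_SPIC_tet_DOX replicate 2, Hsp90aa1 passed at 0.53 (SE 0.17, adjusted p = 0.0315).

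In the mitochondrial set, Hspe1 was at 6.30, 6.28 and 6.27 log2 CPM in Rag_SPIC_tet_DOX_shBCLAF1, against 5.51, 4.08 and 4.64 in Rag_SPIC_tet_DOX (1.54, SE 0.33, adjusted p = 0.00923). Hspa9 was at 8.96, 9.05 and 9.05 in Rag_SPIC_tet_DOX_shBCLAF1, against 8.46, 7.03 and 7.87 in Rag_SPIC_tet_DOX (1.24, SE 0.33, adjusted p = 0.02). Trap1 was at 7.50, 7.44 and 7.47 in Rag_SPIC_tet_DOX_shBCLAF1, against 7.30, 6.32 and 6.77 in Rag_SPIC_tet_DOX (0.67, SE 0.23, adjusted p = 0.043). For all 3 the Rag_SPIC_tet_DOX libraries fell in the order replicate 1, 3, 2 from high to low, below the other group. Hspd1 showed the widest such spread, at 8.0, 8.07 and 8.09 in Rag_SPIC_tet_DOX_shBCLAF1, against 7.62, 5.29 and 6.72 in Rag_SPIC_tet_DOX, and missed the threshold (1.51, SE 0.53, adjusted p = 0.0504). Without Rag_SPIC_tet_DOX replicate 2 its difference was 0.88 (SE 0.23, adjusted p = 0.0157).

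Of the chaperonin subunits 3 rose. Cct3 was at 8.17, 8.18 and 8.11 log2 CPM in Rag_SPIC_tet_DOX_shBCLAF1, against 7.76, 6.65 and 7.22 in Rag_SPIC_tet_DOX (0.94, SE 0.25, adjusted p = 0.0207). Cct8 was at 8.43, 8.46 and 8.43 in Rag_SPIC_tet_DOX_shBCLAF1, against 8.12, 6.92 and 7.62 in Rag_SPIC_tet_DOX (0.89, SE 0.28, adjusted p = 0.0339). Tcp1 passed narrowly, at 8.69, 8.73 and 8.73 in Rag_SPIC_tet_DOX_shBCLAF1, against 8.55, 7.65 and 8.13 in Rag_SPIC_tet_DOX (0.61, SE 0.21, adjusted p = 0.0477). The other 4 subunits had differences of 0.26 to 0.38 that did not pass.

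BiP led the ER chaperones. Hspa5 was at 9.27, 9.35 and 9.28 log2 CPM in Rag_SPIC_tet_DOX_shBCLAF1, against 8.57, 7.70 and 8.16 in Rag_SPIC_tet_DOX (1.15, SE 0.20, adjusted p = 0.00466). Manf was at 6.74, 6.69 and 6.63 in Rag_SPIC_tet_DOX_shBCLAF1, against 6.33, 5.44 and 5.81 in Rag_SPIC_tet_DOX (0.82, SE 0.21, adjusted p = 0.0162), and Hyou1, the ER HSP110, at 7.78, 7.77 and 7.76 in Rag_SPIC_tet_DOX_shBCLAF1, against 7.33, 6.60 and 6.97 in Rag_SPIC_tet_DOX (0.80, SE 0.17, adjusted p = 0.00938). The groups did not overlap for these genes. Hsp90b1 did overlap, at 8.95, 9.0 and 9.03 in Rag_SPIC_tet_DOX_shBCLAF1, against 9.04, 8.30 and 8.68 in Rag_SPIC_tet_DOX (0.32, SE 0.18, adjusted p = 0.172). Sdf2l1 (1.05, SE 0.42, adjusted p = 0.0738) and Dnajb9 (0.38, SE 0.14, adjusted p = 0.0599) did not pass.

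The UPR genes went both ways. Syvn1 (HRD1), the ubiquitin ligase of ERAD, was at 8.81, 8.81 and 8.89 log2 CPM in Rag_SPIC_tet_DOX_shBCLAF1, against 8.24, 8.46 and 8.31 in Rag_SPIC_tet_DOX (0.50, SE 0.08, adjusted p = 0.00278). Its adaptor Sel1l was at 7.15, 7.20 and 7.16 in Rag_SPIC_tet_DOX_shBCLAF1, against 6.89, 7.07 and 6.88 in Rag_SPIC_tet_DOX (0.22, SE 0.07, adjusted p = 0.0346). Xbp1 was at 6.21, 6.30 and 6.29 in Rag_SPIC_tet_DOX_shBCLAF1, against 6.06, 5.66 and 5.90 in Rag_SPIC_tet_DOX (0.40, SE 0.11, adjusted p = 0.0202). All 3 were higher without overlap, while the sensor Ern1 and the ERAD component Herpud1 were lower without overlap. Ern1 was at 5.26, 5.28 and 5.31 in Rag_SPIC_tet_DOX_shBCLAF1, against 5.78, 6.04 and 5.63 in Rag_SPIC_tet_DOX (-0.53, SE 0.11, adjusted p = 0.00749). Herpud1 was at 9.12, 8.99 and 9.0 in Rag_SPIC_tet_DOX_shBCLAF1, against 9.23, 9.81 and 9.57 in Rag_SPIC_tet_DOX (-0.50, SE 0.15, adjusted p = 0.0285). The sensor gene Atf6 stayed within 0.25 log2 units across all 5 group means and passed in no comparison.

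In all, 17 genes were higher under the label in both lines and 2, Ern1 and Herpud1, lower in both, against 13.0% and 11.5% of all genes. No member was called in opposite directions in these fits with all libraries. Dnajb9, however, was listed by the authors as lower in Art_shBCLAF1 than in Art (-0.55). They listed it as higher in Rag_SPIC_tet_DOX_shBCLAF1 than in Rag_SPIC_tet_DOX (0.35). In the fits used here, a further 12 genes were called higher in Art and not in Rag_SPIC_tet_DOX, against 10.3% of all genes. Another 9 were called higher in Rag_SPIC_tet_DOX and not in Art, against 12.9%. The difference between lines was tested itself. That test, an interaction over the 12 libraries, found the label's effect larger (more positive) in Art than in Rag_SPIC_tet_DOX for 10 genes and smaller for 3, against 14.3% and 17.0% of all genes. Read against those shares, 10 of 47 lies above the share of all genes and 3 of 47 below it. Leaving out Rag_SPIC_tet_DOX replicate 2 alone gave 17 and 4, against 17.6% and 17.7% of all genes. Without Art replicate 3 alone the counts were 16 and 5, against 26.6% and 27.8%. Leaving out Rag_SPIC_tet_DOX replicate 1 or 3, any Rag_SPIC_tet_DOX_shBCLAF1 library, or Art_shBCLAF1 replicate 1 or 3 gave 6 or 7 higher. In those settings 9.99% to 12.2% of all genes were called higher, so that 6 or 7 of 47 lies near that share. With Art replicate 3 and Rag_SPIC_tet_DOX replicate 2 both left out, a setting chosen after the data had been seen, the counts were 28 and 8, against 33.1% and 31.5% of all genes.

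Hsp90aa1 differed by 1.46 (SE 0.45, adjusted p = 0.03), Hsp90ab1 by 1.39 (SE 0.29, adjusted p = 0.00536) and Stip1 by 1.11 (SE 0.28, adjusted p = 0.0125). For the chaperonin, the difference was 1.28 for Tcp1 (SE 0.37, adjusted p = 0.0242), 1.22 for Cct8 (SE 0.37, adjusted p = 0.0303) and 1.19 for Cct2 (SE 0.20, adjusted p = 0.00165), and Cct4 passed too (0.82, SE 0.18, adjusted p = 0.00629). The HSP90 pair with its co-chaperone and 4 of 7 chaperonin subunits thus rose more in Art. Hspa9 (1.47, SE 0.38, adjusted p = 0.0147), P4hb (1.33, SE 0.21, adjusted p = 0.00108) and Manf (1.01, SE 0.33, adjusted p = 0.0381) did so as well. Hspd1 (1.61, SE 0.62, adjusted p = 0.0703) and Hspe1 (1.11, SE 0.40, adjusted p = 0.055) did not pass with all libraries, and did with both libraries left out (2.04, adjusted p = 4.52e-05, for Hspd1 and 1.31, adjusted p = 0.00106, for Hspe1).

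Hspa1a (-2.86, SE 0.67, adjusted p = 0.00883) and Hspa1b (-2.27, SE 0.41, adjusted p = 0.0021) differed the other way, and so did Syvn1 (-0.60, SE 0.16, adjusted p = 0.0142). Hspa8 did not pass with all libraries (-0.06, SE 0.44, adjusted p = 0.931), but with both libraries left out its effect was larger in Art (0.58, SE 0.18, adjusted p = 0.0151). Hspa5, at -0.38 (SE 0.25, adjusted p = 0.271), did not pass.

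**Figure D4:**
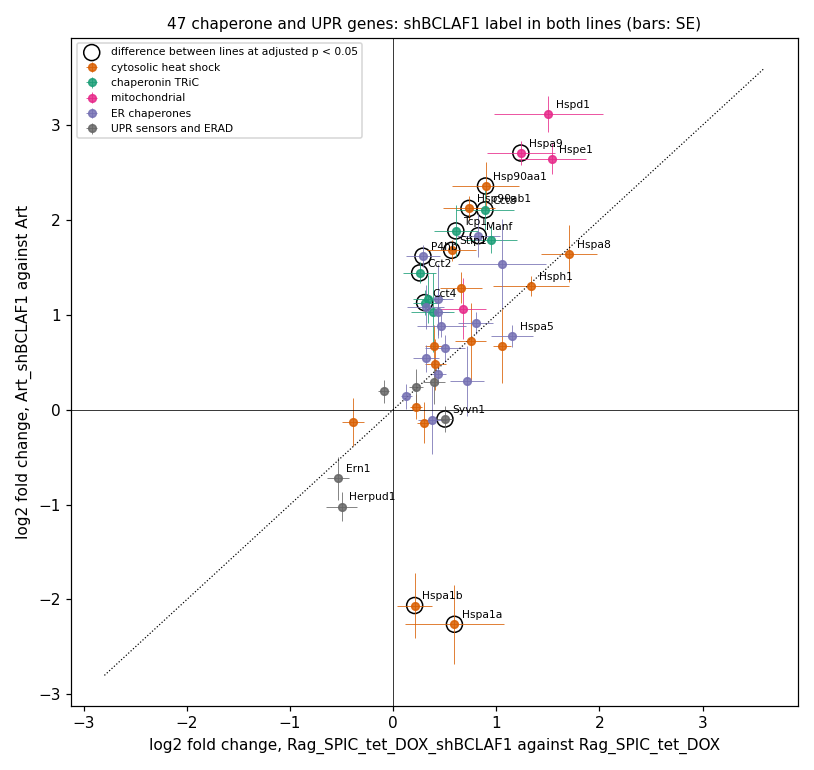
Each point is 1 of the 47 genes, plotted by its log2 fold change for Art_shBCLAF1 against Art (vertical) and for Rag_SPIC_tet_DOX_shBCLAF1 against Rag_SPIC_tet_DOX (horizontal), with SE bars, a dotted line of equal change and colours by compartment. The 10 circled genes above the line, among them Hspa9 and Hsp90aa1, and the 3 circled below it, Hspa1a, Hspa1b and Syvn1, are those whose effect differed between the lines at adjusted p below 0.05.

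Doxycycline, which switches on the SPIC construct, went with few calls in the fit of all libraries without weights. Relative to Rag_SPIC_tet_NoDOX, 2 genes were higher and 2 lower, against 3.16% and 8.67% of all genes, although 39 of 47 differences were above 0, with a median of 0.37, against 0.00 over all genes. Without Rag_SPIC_tet_DOX replicate 2 the counts were 35 higher and 4 lower, against 20.0% and 19.6% of all genes, and the median was 0.51. The authors' deposited table lists 37 of the members as higher and 7 as lower, against 33.1% and 34.0% of all genes. Within the group, 36 of 47 genes ran from high to low as replicate 1, 3, 2, among them all 4 mitochondrial genes and 14 of 15 ER chaperones, and 1 of 6 UPR genes. The order was counted for the members alone, and these libraries were graded over all genes too. It is therefore not shown to be particular to the members. The transcription factor gene Myc had the same order, at 8.06, 3.76 and 6.83 log2 CPM in replicates 1, 2 and 3, whereas Spic had 3.72, 4.59 and 4.31. The part of this order in the chaperone differences was not tested. Leaving out Rag_SPIC_tet_DOX replicate 3 or any Rag_SPIC_tet_NoDOX library brought both counts of members to 0. Calls over all 11551 genes fell as well in these settings, to between 1 and 35 higher and between 11 and 366 lower.

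Chordc1, an HSP90 co-chaperone, was at 6.47, 6.22 and 6.36 log2 CPM in Rag_SPIC_tet_DOX, against 5.79, 6.0 and 5.97 in Rag_SPIC_tet_NoDOX (0.43, SE 0.09, adjusted p = 0.0325). Dnajb1, the main J-domain partner of inducible HSP70, was at 6.18, 6.16 and 6.26 in Rag_SPIC_tet_DOX, against 5.92, 5.95 and 5.95 in Rag_SPIC_tet_NoDOX (0.26, SE 0.07, adjusted p = 0.0471). Both were higher in every doxycycline library. Hspa1b was lower, at 2.66, 3.22 and 3.14 in Rag_SPIC_tet_DOX, against 3.88, 3.73 and 3.79 in Rag_SPIC_tet_NoDOX (-0.79, SE 0.17, adjusted p = 0.031). Hspa1a was at -2.08, -1.08 and -0.22 in Rag_SPIC_tet_DOX, against 0.46, 0.32 and 0.34 in Rag_SPIC_tet_NoDOX, and did not pass (-1.50, SE 0.47, adjusted p = 0.0754). Ern1 was lower too, at 5.78, 6.04 and 5.63 in Rag_SPIC_tet_DOX, against 6.27, 6.31 and 6.28 in Rag_SPIC_tet_NoDOX (-0.47, SE 0.11, adjusted p = 0.035).

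Large but scattered differences were those of Hspd1 and Hsph1. Hspd1 was at 7.62, 5.29 and 6.72 log2 CPM in Rag_SPIC_tet_DOX, against 5.18, 5.39 and 5.19 in Rag_SPIC_tet_NoDOX (1.29, SE 0.51, adjusted p = 0.123), and replicate 2 lay inside the range without doxycycline. Hsph1 was at 6.43, 4.86 and 5.89 in Rag_SPIC_tet_DOX, against 4.52, 4.42 and 4.59 in Rag_SPIC_tet_NoDOX (1.21, SE 0.35, adjusted p = 0.0631), without overlap. Without replicate 2, Hspd1 rose by 1.92 (SE 0.20, adjusted p = 0.000169), Hsp90aa1 by 1.11 (SE 0.15, adjusted p = 0.000519), Hspe1 by 1.01 (SE 0.22, adjusted p = 0.00513) and Hspa8 by 0.89 (SE 0.14, adjusted p = 0.00105). Xbp1 (-0.20, SE 0.11, adjusted p = 0.215), Herpud1 (0.17, SE 0.15, adjusted p = 0.421) and Hsf1 (0.04, SE 0.08, adjusted p = 0.739) did not pass with all libraries.

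Between Art and Rag_SPIC_tet_NoDOX cells few of these genes passed in the fit of all libraries without weights. The genotype cannot be told apart from the SPIC construct that the labels name only for the Rag line. Hsph1 was the 1 higher gene, at 5.43, 5.42 and 5.38 log2 CPM in Art, against 4.52, 4.42 and 4.59 in Rag_SPIC_tet_NoDOX (0.90, SE 0.11, adjusted p = 0.0146), and no gene was lower, against 2.58% and 2.56% of all genes. By limma 8 of the 47 had an unadjusted p below 0.05, against 21.7% of all genes. With weights for each library, another limma fit, 12 genes were higher and 17 lower, against 27.9% and 28.8% of all genes. Without Art replicate 3 the counts were 10 and 16, against 23.2% and 24.2% of all genes, so that 10 of 47 lies near the share of all genes and 16 of 47 above it. Leaving out any other single library ended the call of Hsph1, and at most 1 of all 11551 genes was then called. The authors' deposited table lists 10 higher and 16 lower, against 27.4% and 27.9% of all genes. Not all of these are the genes called without Art replicate 3, since Herpud1, higher in that fit, is not listed.

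In that setting without Art replicate 3, Hspa8 differed by -0.51 (SE 0.06, adjusted p = 6.75e-07), Hsp90aa1 by -0.28 (SE 0.07, adjusted p = 0.00424) and Hspe1 by -0.31 (SE 0.11, adjusted p = 0.0312), all lower in Art. The library left out went the other way for Hspa8, at 7.83 log2 CPM, against 7.24 to 7.32 in Rag_SPIC_tet_NoDOX. With all libraries and no weights, no member other than Hsph1 passed. Without Art replicate 3, 5 of 7 chaperonin and 3 of 4 mitochondrial genes were lower and none of either was higher, against 24.2% and 23.2% of all genes. Hspa1b (0.33, SE 0.10, adjusted p = 0.0103), Xbp1 (0.31, SE 0.06, adjusted p = 0.000382) and Herpud1 (0.18, SE 0.06, adjusted p = 0.0266) were higher. Myc was also lower with all libraries, at 3.87, 4.08 and 4.26 log2 CPM in Art, against 5.77, 5.41 and 5.60 in Rag_SPIC_tet_NoDOX (-1.53, SE 0.16, adjusted p = 0.0112).

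**Figure D5:**
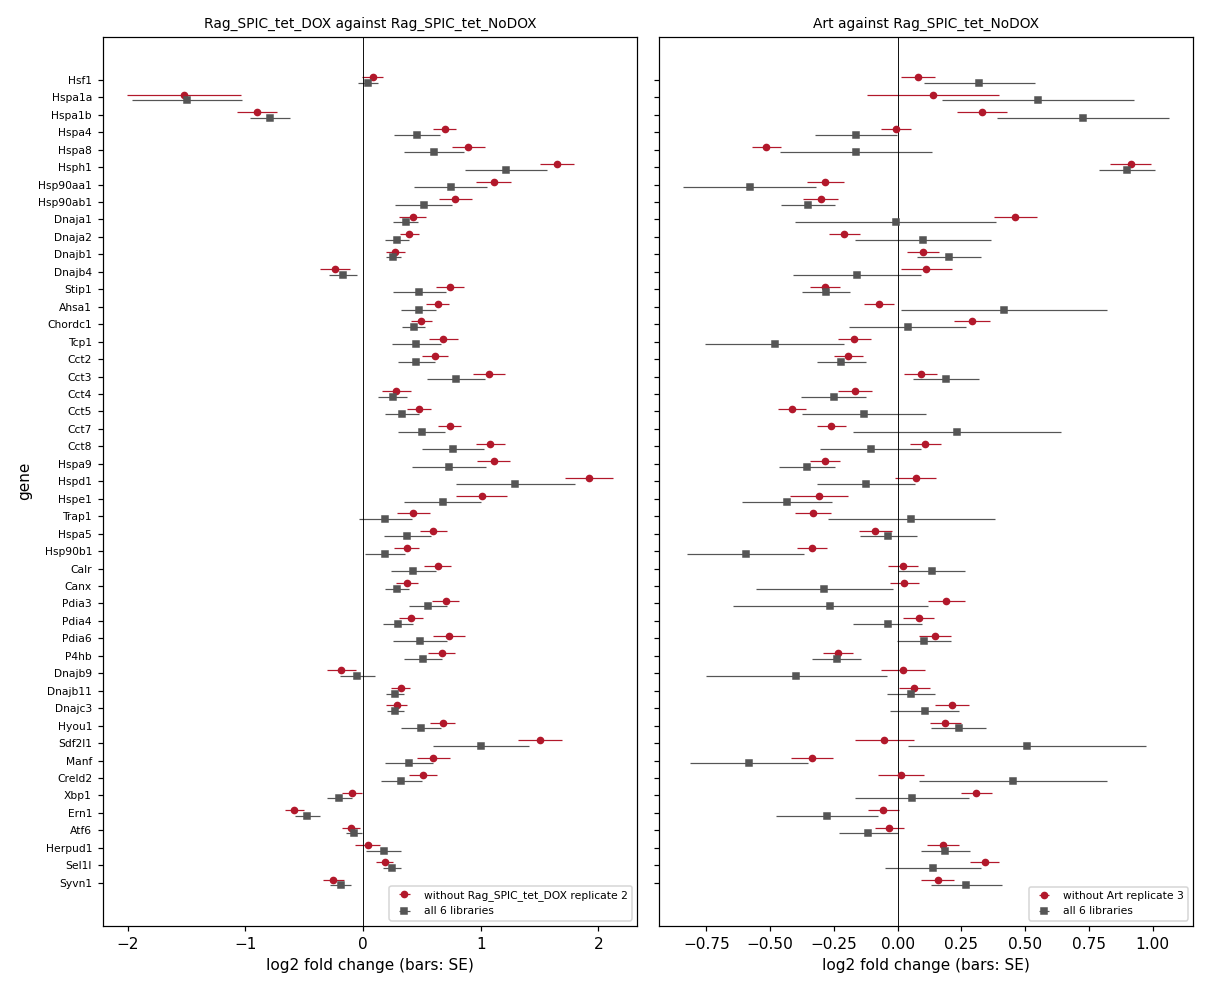
Log2 fold changes with SE bars of the 47 genes for Rag_SPIC_tet_DOX against Rag_SPIC_tet_NoDOX (left) and Art against Rag_SPIC_tet_NoDOX (right), with Rag_SPIC_tet_DOX replicate 2 (left) or Art replicate 3 (right) left out (red circles) and with all 6 libraries (grey squares). On the left most red circles lie farther above 0 than the grey squares and have shorter bars, and on the right bars shorten, with Hsph1 near 0.90 in both.

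Genes of the same pathways outside the 47 were counted in the same fits. The shares of all genes called are those given above for each comparison. For Art_shBCLAF1 against Art, 13 of 37 other cytosolic co-chaperones were higher and 4 lower, 9 and 0 of 20 prefoldin and chaperonin helpers, 9 and 1 of 23 mitochondrial chaperones, import factors and proteases, 15 and 3 of 31 ER folding and glycosylation genes, and 12 and 1 of 22 ER translocation genes. Other ERAD genes had 1 higher and 2 lower of 24, and UPR transducers with the PERK branch 9 and 2 of 19, all against 25.0% and 24.1% of all genes. Without Art replicate 3, where 40.6% and 39.5% of all genes were called, the counts were 23 and 8 co-chaperones, 15 and 2 helpers, 17 and 2 mitochondrial genes, 24 and 4 ER folding genes, 17 and 4 translocation genes, 7 and 14 ERAD genes and 11 and 6 UPR transducers. The largest of these changes were those of the small heat-shock protein gene Hspb8 (4.34, SE 0.99, adjusted p = 0.0125), the immunophilin gene Fkbp5 (3.69, SE 0.18, adjusted p = 8e-05), the glutathione-degrading enzyme gene Chac1 (3.49, SE 0.36, adjusted p = 0.000665), C1qbp (2.85, SE 0.13, adjusted p = 7.85e-05), the histone chaperone gene Npm1 (2.83, SE 0.19, adjusted p = 0.000165) and the ER oxidase gene Ero1l (2.49, SE 0.30, adjusted p = 0.00108). With or without Art replicate 3, calls of higher level outnumbered those of lower level in each of these lists other than ERAD, where the lower ones were more.

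For Rag_SPIC_tet_DOX_shBCLAF1 against Rag_SPIC_tet_DOX the counts, higher then lower, were 14 and 6 of 37 co-chaperones, 7 and 1 of 20 helpers, 10 and 0 of 23 mitochondrial genes, 11 and 2 of 31 ER folding genes, 10 and 2 of 22 translocation genes, 4 and 6 of 24 ERAD genes and 6 and 4 of 19 UPR transducers, against 28.5% and 25.1% of all genes. Without Rag_SPIC_tet_DOX replicate 2 the helpers came to 11 and 0. Hspb8 (3.98, SE 0.44, adjusted p = 0.000957) and Fkbp5 (1.67, SE 0.48, adjusted p = 0.0251) again led the co-chaperones, with the mitochondrial import channel gene Tomm40 (1.06, SE 0.27, adjusted p = 0.016) and the glucosidase gene Mogs (1.07, SE 0.18, adjusted p = 0.00424) leading their lists. The label's effect differed between lines in 7 and 4 co-chaperones, 5 and 0 helpers, 3 and 1 mitochondrial genes, 9 and 3 ER folding genes, 5 and 0 translocation genes, 2 and 5 ERAD genes and 6 and 3 UPR transducers, more positive in Art first, against 14.3% and 17.0% of all genes. With both libraries left out, against 33.1% and 31.5% of all genes, these counts were 21 and 8, 12 and 3, 14 and 3, 23 and 3, 15 and 4, 5 and 12, and 9 and 4 in the same order of lists.

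For Rag_SPIC_tet_DOX against Rag_SPIC_tet_NoDOX the same lists had 2 and 0 co-chaperones, 1 and 1 helpers, 1 and 0 mitochondrial genes, 1 and 1 ER folding genes, 2 and 0 translocation genes, 2 and 1 ERAD genes, and 0 and 4 UPR transducers, higher first, against 3.16% and 8.67% of all genes. Without Rag_SPIC_tet_DOX replicate 2, against 20.0% and 19.6% of all genes, they were 14 and 1, 10 and 2, 11 and 1, 14 and 1, 8 and 2, 5 and 1, and 5 and 6 in the same order of lists. With all libraries the 4 lower UPR transducers were Ppp1r15a (GADD34), at -1.32 (SE 0.09, adjusted p = 0.00163), Atf3, at -1.15 (SE 0.24, adjusted p = 0.0281), Ddit4, at -1.04 (SE 0.08, adjusted p = 0.00331), and Ddit3 (CHOP), at -0.48 (SE 0.08, adjusted p = 0.0179). All 4 are stress-induced genes of the PERK branch or of the wider integrated stress response. For Art against Rag_SPIC_tet_NoDOX, calls with all libraries were limited to the UPR transducers, against 2.58% and 2.56% of all genes, where the pseudokinase gene Trib3 was higher (1.16, SE 0.13, adjusted p = 0.0133) and Atf3 (-1.23, SE 0.14, adjusted p = 0.0122), Ddit4 (-1.11, SE 0.19, adjusted p = 0.0314) and Ppp1r15a (-0.81, SE 0.13, adjusted p = 0.0278) lower. Without Art replicate 3, against 23.2% and 24.2% of all genes, every one of these lists held calls: 7 and 10 co-chaperones, 1 and 6 helpers, 5 and 4 mitochondrial genes, 7 and 5 ER folding genes, 8 and 5 translocation genes, 10 and 1 ERAD genes and 4 and 8 UPR transducers. These 2 comparisons share the Rag_SPIC_tet_NoDOX libraries.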

How the data were processed

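Per the labels, total RNA of imatinib-treated Abelson pre-B cells was sequenced paired-end in 15 libraries. The submitters' processing notes name mm9, Subread, featureCounts 1.4.5, edgeR and limma, with no role or order. The authors deposited 4 tables of log2 CPM (0.5 reads added) with their own log2 fold changes and adjusted p-values, and each lists only genes under an adjusted p of 0.05. The column of Art replicate 3 differs from its label by 1 character.

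The tables were joined by gene identifier (11551 genes). limma 3.58.1 in R 4.3.3, with a mean-variance trend, was fitted to the 6 libraries of each comparison, and to 12 for the difference between lines. Tests are two-sided, Benjamini-Hochberg adjusted over all genes and called under 0.05. They were checked on simulated data with equal spread in the groups compared, which does not cover the unequal spread of the real groups. Values named are those of called members with the largest changes (up to 3 per compartment and direction) and a fixed list of genes. Members and lists were chosen with earlier results of these data known. Depth bounds precision, and replicate numbers were tried as a block. Protein sequences were not analysed here.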

Additional observations from a re-analysis of the deposited data

Results flagged for a closer look

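The effect of the shBCLAF1 label differed between Art and Rag_SPIC_tet_DOX cells for 13 of the 47 genes, by the interaction term of the limma fit over 12 libraries (adjusted p below 0.05). Of all genes, 14.3% differed with a more positive effect in Art and 17.0% with a less positive one. The difference, as the log2 effect in Art minus that in Rag_SPIC_tet_DOX, was 1.46 for Hsp90aa1, 1.39 for Hsp90ab1 and 1.11 for Stip1. Among chaperonin subunits it was 1.28 for Tcp1, 1.19 for Cct2, 0.82 for Cct4 and 1.22 for Cct8. It was 1.47 for Hspa9, 1.33 for P4hb and 1.01 for Manf. Values below 0 were found for Hspa1a, at -2.86, Hspa1b, at -2.27, and Syvn1, at -0.60. The Art and the Rag_SPIC_tet_DOX libraries each include 1 that was also left out in turn, and the lines also differ in doxycycline and in the SPIC construct, which cannot be told apart from the line. Single values were not tested for outliers, since each group has 3 libraries.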

How the results depend on the processing

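Counts of called genes moved both with single libraries and with weights for each library. Leaving out 1 library at a time gave, for Art against Rag_SPIC_tet_NoDOX, 0 to 10 higher and 0 to 16 lower genes. The shares of all genes were 0% to 23.2% and 0% to 24.2%. For Rag_SPIC_tet_DOX against Rag_SPIC_tet_NoDOX it gave 0 to 35 higher and 0 to 4 lower, against 0.00866% to 20.0% and 0.0952% to 19.6%. For Rag_SPIC_tet_DOX_shBCLAF1 against Rag_SPIC_tet_DOX it gave 11 to 39 higher and 1 to 3 lower, against 16.9% to 36.1% and 17.2% to 29.5%. For the difference between lines it gave 6 to 17 and 3 to 5, against 9.99% to 26.6% and 13.2% to 27.8%. For Art_shBCLAF1 against Art the counts stayed within 1.5 times of 29 and 4 (21 to 34 and 3 to 6). The shares of all genes there were 16.3% to 40.6% and 16.1% to 39.5%. Weights for each library gave 12 and 17, 37 and 7, 41 and 3, and 28 and 11 in those first 4 comparisons. Centring shifts log2 fold changes down by 0.10 for Rag_SPIC_tet_DOX_shBCLAF1 against Rag_SPIC_tet_DOX and 0.13 for the difference. Using all 15 libraries gave 6 and 1 for doxycycline, centring on medians gave 1 higher there, and leaving out both libraries gave 28 and 8 for the difference. The shares of all genes were 2.99% and 7.06%, 1.68% higher, and 33.1% and 31.5%. With replicate number as a block, the counts were 0 higher for Art against Rag_SPIC_tet_NoDOX, 0 and 0 for doxycycline, and 1 lower for Rag_SPIC_tet_DOX_shBCLAF1. Of all genes the block fit called 0% higher in the first, 0.0433% and 1.26% for doxycycline, and 20.5% lower in the last. Same-numbered libraries deviated with correlations of -0.23 to 0.20, so the numbers are not taken to pair them. Hspa8 changed sign in the difference between lines, at 0.31 with library weights and 0.58 with both libraries left out. The cause was not tested for these changes. Of 1373 recomputed values of single genes, 125 lost and 86 gained a call, and 27 changed sign while called in neither fit. The 5.81 M reads of Art replicate 3 limit the Art comparisons, and Hspa1a rests on few reads.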
